A study of Mus musculus with 8 samples.

Results

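The 10 genes described here make, break down or use ceramide. They were taken as the rows of the deposited gene counts whose Ensembl identifiers are, in the GENCODE annotation of the mouse genome build GRCm38, *Sptlc1*, *Sptlc2*, *Cers2*, *Cers4*, *Cers5*, *Cers6*, *Degs1*, *Asah1*, *Smpd1* and *Ugcg*. They are 10 of the 45706 identifiers in the counts. All 10 passed the filter on low counts, with 130 to 16117 reads per gene and liver. The rule names genes and uses no measured value, although the names were chosen with earlier results of these data known.

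Liver RNA came from 8 male mice, 4 labelled *Srsf10-kd* and 4 labelled *Ctrl*, whose strain is spelled C56B6/J in the labels and C57BL/6J in the study. At 6 weeks of age each mouse received, by tail vein, an adeno-associated virus that carried GFP and a short hairpin RNA, either against *Srsf10*, which codes for a splicing factor, or a control hairpin. A diet with 60% of calories from fat began 4 weeks later and lasted 12 weeks, which gives an age of 22 weeks at collection. Both groups therefore share virus, GFP, hairpin expression and diet, and the data hold no chow-fed or uninjected liver. The CBA promoter of the vector is active in many cell types, so the hairpin was not restricted to hepatocytes by its promoter.

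Ceramide is the hub of sphingolipid metabolism. Serine palmitoyltransferase joins serine and palmitoyl-CoA, ceramide synthases attach a fatty acid whose length depends on the synthase, and a desaturase completes the molecule. Ceramide then leaves the pool by hydrolysis to sphingosine or by conversion to sphingomyelin and glucosylceramide, and sphingomyelinases return it. In the liver, ceramides that carry long acyl chains are known for their association with insulin resistance and lipid accumulation, whereas those with very long chains are the bulk of hepatic ceramide.

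Positions are on GRCm38, and each gene is protein-coding in GENCODE. The serine palmitoyltransferase subunits are *Sptlc1* (ENSMUSG00000021468) at chr13:53332748-53377397 on the minus strand and *Sptlc2* (ENSMUSG00000021036) at chr12:87305058-87388355 on the minus strand. The ceramide synthases are *Cers2* (ENSMUSG00000015714) at chr3:95314791-95323599 on the plus strand, *Cers4* (ENSMUSG00000008206) at chr8:4493026-4531680 on the plus strand, *Cers5* (ENSMUSG00000023021) at chr15:99734881-99772885 on the minus strand and *Cers6* (ENSMUSG00000027035) at chr2:68861441-69114282 on the plus strand. The desaturase is *Degs1* (ENSMUSG00000038633) at chr1:182275772-182282804 on the minus strand. The enzymes of turnover are *Asah1* (ENSMUSG00000031591) at chr8:41340197-41374773 on the minus strand, *Smpd1* (ENSMUSG00000037049) at chr7:105554360-105558389 on the plus strand and *Ugcg* (ENSMUSG00000028381) at chr4:59189257-59222833 on the plus strand.

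*Cers2*, *Cers6* and *Degs1* hold the E-box letters CACGTG just upstream of a transcription start in RefSeq. The 30 bases around each match are printed 5′ to 3′ on the strand of the gene, from build GRCm38.p6, with the matching letters in capitals. They are shown as the sequence context of the main ceramide synthase, of the synthase with the widest spread among the *Ctrl* livers, and of the desaturase whose groups did not overlap.
Cers2: cgccctgcggggCACGTGccacccgccccg
Cers6: cggccaggctgcCACGTGacaggcgaggcg
Degs1: gggagcctcaatCACGTGgtccagtcagct
The first lies at chr3:95315049-95315078 on the plus strand, the second at chr2:68861407-68861436 on the plus strand and the third at chr1:182282221-182282250 on the minus strand. The motif starts 129, 22 and 43 bases before the start site of *Cers2*, *Cers6* and *Degs1*, and the *Degs1* match also lies in an exon of a GENCODE transcript. RefSeq windows of 250 bases upstream were found for 9 of the 10 genes (10 windows, as *Cers2* has a pair of starts and *Asah1* has none in the table), and 3 of the 10 windows hold CACGTG, which reads the same on both strands. Of all 32851 mouse windows of that length, 6.02% hold it. The GC box GGGCGG, searched on both strands, occurred in 7 of the 10 windows and in 32.7% of all windows. CCAAT occurred in 5 of them and in 33.8% of all, and TATAAA in 0 of them and in 12.4% of all. The windows hold 5 to 43 CpG dinucleotides, against a median of 6 over all windows. CACGTG and GGGCGG each contain a CpG, and the shares over all windows were not matched for CpG content. The higher shares among the 10 windows are therefore not read as a trait of ceramide genes. The E-box was singled out after the windows had been read, no binding was measured, and a match is a description of letters only.

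The *Srsf10* gene itself was measured at 34.3, 34.0, 41.0 and 36.5 CPM (a gene's read count scaled to a common library size, after TMM normalization) in *Srsf10-kd* livers 1 to 4. In *Ctrl* livers 1 to 4 its level was 31.6, 33.7, 35.3 and 30.9 CPM. The log2 difference was 0.15 with an edgeR adjusted p of 0.378, so gene-level counts do not show a lower *Srsf10* RNA under the label. The paper reports that this vector lowered SRSF10 in liver, as protein by western blot and as RNA by qPCR. It does not say whether the sequenced livers were among those measured. Exons of *Srsf10* share 8.5% of their read-length stretches with transcripts of *Gm5446*, *Gm9134* and *AC126031.3*, which makes its counts uncertain. Every direction below is between livers as labelled. Libraries held 50456404 to 59697241 counted reads, so even *Cers5*, the gene with the lowest count, had at least 130 reads per liver. *Srsf10-kd* 3 stood apart on the first principal component of all tested genes (44.8% of the variance), at -67.4 against -1.92 to -11.5 for the other *Srsf10-kd* livers. The *Ctrl* livers lay at 2.91 to 41.8 on it. The slope of log2 CPM on log2 transcript length was also lowest in *Srsf10-kd* 3, at 0.427. It was 0.544 to 0.584 in the other *Srsf10-kd* livers and 0.578 to 0.741 in *Ctrl*. Summed hepatocyte markers were 104800 to 122600 CPM in *Srsf10-kd* and 89150 to 113700 CPM in *Ctrl*, with all 10 markers detected, as the tissue label says. Summed macrophage markers (211 to 385 against 257 to 380 CPM), stellate cell markers (210 to 336 against 236 to 276 CPM), endothelial markers (284 to 339 against 316 to 357 CPM), and lymphocyte and neutrophil markers (3.40 to 5.53 against 4.25 to 5.77 CPM) overlapped between groups. Summed cholangiocyte markers did not overlap, at 54.9 to 76.5 CPM in *Srsf10-kd* and 37.7 to 47.8 CPM in *Ctrl*. Of these 8 markers 7 were higher. An unadjusted edgeR p under 0.05, reached by 21.8% of all genes, was found for 4 of the 8 cholangiocyte markers, 4 of 10 endothelial markers, 1 of 10 hepatocyte markers, 1 of 10 stellate cell markers, 1 of 9 tested lymphocyte and neutrophil markers and 0 of 10 macrophage markers, and no marker had an adjusted p under 0.05. Their part in the values below was not tested. In bulk liver, fewer cells of a type and less RNA per cell cannot be told apart.

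None of the 10 genes differed between *Srsf10-kd* and *Ctrl* livers in the two-sided quasi-likelihood test of edgeR, whose p-values were adjusted by Benjamini-Hochberg over all 15491 genes tested. Of all genes tested, 11 (0.0710%) had an adjusted p under 0.05, so a count of 0 among 10 genes is near that background. An unadjusted edgeR p under 0.05 was reached by 0 of the 10 genes and by 21.8% of all genes. DESeq2 called 0 of the 10 genes and 5.27% of the 15643 genes to which it gave an adjusted p. Limma-voom, run with a quality weight for each sample, called 0 of the 10 and 11.7% of all. The groups of 4 did not overlap in CPM for 1 of the 10 genes (*Degs1*) and for 14.3% of all. In all, 7 of the genes were higher and 3 were lower in the *Srsf10-kd* mean, and 7954 of all 15491 genes tested were higher. The 7 include *Smpd1* and *Sptlc2*, whose log2 differences of 0.00063 and 0.01 were near 0. The median log2 difference of the 10 genes was 0.04, beside 0.01 over all genes tested. Their median absolute log2 difference was 0.14, beside 0.24 over all genes. These figures were not matched for read count, and the genes tested include some with fewer reads than any of the 10. The number of genes called over all genes moved with single livers, from 11 to 544 without *Ctrl* 3, to 64 without *Srsf10-kd* 3 and to 0 to 5 without any other liver, and the count among the 10 genes was 0 in each of these fits.

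**Figure D1:**
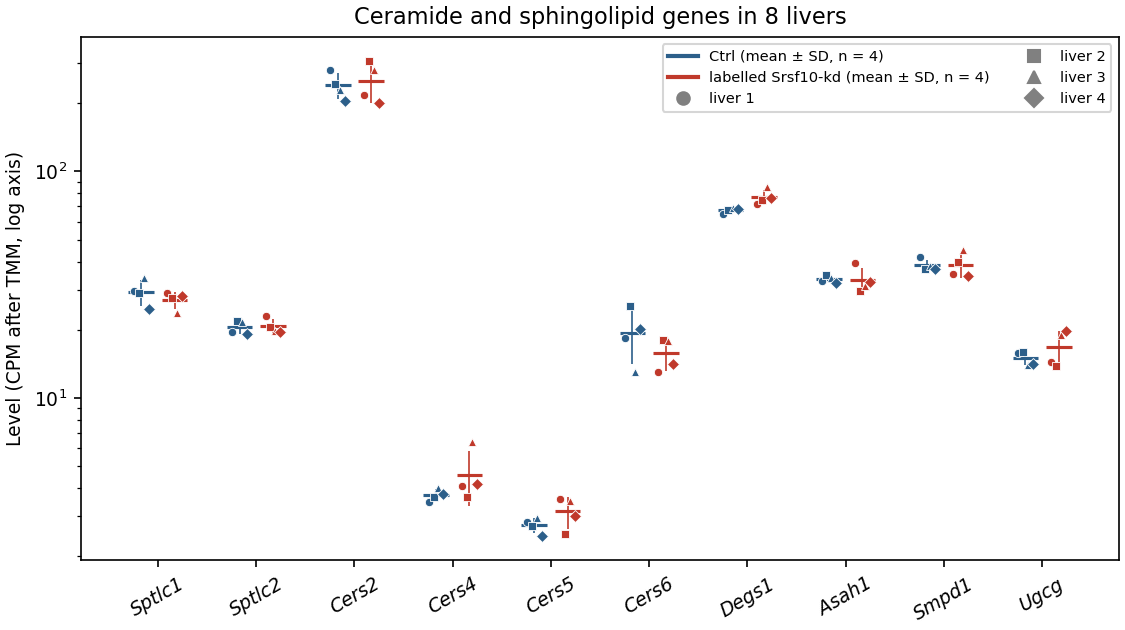
Level of each gene in each liver (y axis, CPM after TMM on a log axis; x axis, the 10 genes), with blue points for Ctrl and red points for livers labelled Srsf10-kd, marker shapes for liver numbers, and lines for the mean ± SD (n = 4 per group). *Cers2* sits highest at 199 to 308 CPM, and *Degs1* is the gene whose red points all lie above the blue ones.

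At the first step of the pathway the groups did not differ beyond the spread of the livers. *Sptlc1* codes for the subunit shared by all forms of serine palmitoyltransferase, the enzyme that commits serine to sphingolipids. Its level was 29.0, 27.5, 23.7 and 28.3 CPM in *Srsf10-kd* 1 to 4 and 29.6, 29.2, 33.8 and 24.6 CPM in *Ctrl* 1 to 4. The lowest liver was *Srsf10-kd* 3 and the highest *Ctrl* 3, and the groups overlapped. This gave a log2 difference of -0.11 (SE 0.12, 95% interval -0.38 to 0.15, edgeR adjusted p = 0.577).

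*Sptlc2*, a catalytic subunit of the same enzyme, was measured at 22.9, 20.5, 19.8 and 19.5 CPM in *Srsf10-kd* 1 to 4. The *Ctrl* livers had 19.5, 21.8, 21.6 and 19.2 CPM. All 8 values lay between 19.2 and 22.9 CPM with the groups interleaved, and the log2 difference was 0.01 (SE 0.099, 95% interval -0.21 to 0.23, edgeR adjusted p = 0.957). The log2 ratio of *Sptlc2* to *Sptlc1* CPM was -0.39 ± 0.12 in *Srsf10-kd* and -0.51 ± 0.14 in *Ctrl* (mean ± SD, n = 4), with overlapping ranges. *Sptlc3*, the alternative catalytic subunit, had 3 to 19 reads per liver and was not tested.

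Among the ceramide synthases, *Cers2* was by far the most abundant at the RNA level. CERS2 makes ceramides with very long acyl chains and is the main synthase of hepatocytes. Its level was 218, 308, 279 and 199 CPM in *Srsf10-kd* 1 to 4 and 280, 244, 229 and 205 CPM in *Ctrl* 1 to 4. *Srsf10-kd* livers included both the highest and the lowest of the 8, and the group means were 251 ± 51.0 and 239 ± 31.3 CPM (SD, n = 4). The log2 difference was 0.07 (SE 0.16, 95% interval -0.29 to 0.43, edgeR adjusted p = 0.813), and it was -0.11 with limma-voom and -0.05 without *Srsf10-kd* 2. Exons of *Cers2* overlap exons of *Setdb1* and *6330562C20Rik* on the opposite strand over 219 bases, and the strand setting behind the counts is not given in the sources used here.

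*Cers6* codes for a synthase of ceramides with long acyl chains and varied most between *Ctrl* livers. It was measured at 13, 17.9, 17.9 and 14.2 CPM in *Srsf10-kd* 1 to 4. The *Ctrl* livers had 18.4, 25.5, 13 and 20.2 CPM, so that *Ctrl* 2 was the highest liver and *Ctrl* 3 matched the lowest *Srsf10-kd* liver. The log2 difference was -0.29 (SE 0.20, 95% interval -0.73 to 0.15, edgeR adjusted p = 0.380). It ranged from -0.44 without *Ctrl* 3 to -0.13 without *Ctrl* 2. With limma-voom it was -0.54 at an adjusted p of 0.0585, the lowest adjusted p of any of the 10 genes in any fit, and it was -0.0028 once the dependence of counts on transcript length had been removed from every library (the length correction).

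*Cers4*, whose product also acts on long to very long acyl chains, was expressed at a low level. *Srsf10-kd* livers 1 to 4 had 4.10, 3.65, 6.40 and 4.19 CPM, and *Ctrl* livers 1 to 4 had 3.47, 3.66, 4.02 and 3.77 CPM. *Srsf10-kd* 3 was above all others, and the remaining livers of both groups lay between 3.47 and 4.19 CPM. The log2 difference of 0.30 (SE 0.18, 95% interval -0.11 to 0.70, edgeR adjusted p = 0.342) fell to 0.09 without *Srsf10-kd* 3 and was 0.63 with the length trend removed. Its exons share 7.62% of their 75-base stretches with transcripts of *Vmn2r-ps89*, *Gm36956* and *Gm37834*, and 1100 bases of them overlap the first 2 of these on the opposite strand, which makes its counts uncertain. Among the other 9 genes the share was 0.737% or less.

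*Cers5*, a synthase of ceramides with a palmitoyl chain, had the lowest CPM of the 10 genes. Its level was 3.57, 2.50, 3.52 and 3.03 CPM in *Srsf10-kd* 1 to 4 and 2.83, 2.71, 2.94 and 2.46 CPM in *Ctrl* 1 to 4. *Srsf10-kd* 2 lay among the *Ctrl* livers while the other 3 *Srsf10-kd* livers lay above all *Ctrl* livers. With a log2 difference of 0.21 (SE 0.15, 95% interval -0.14 to 0.55, edgeR adjusted p = 0.422), *Cers5* did not pass the test.

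*Cers2* made up nearly all ceramide synthase RNA in each of the 8 livers. Per kilobase of exon, *Cers2* took 95.1% to 96.5% of the summed *Cers1* to *Cers6* level in *Srsf10-kd* and 94.4% to 96.0% in *Ctrl*. *Cers6* took 2.33% to 2.80% and 2.25% to 4.10%, *Cers5* 0.812% to 1.63% and 1.01% to 1.28%, and *Cers4* 0.343% to 0.658% and 0.357% to 0.521%, in the same order of groups. *Cers1* and *Cers3* had at most 1 read in any liver. The log2 ratio of *Cers2* to *Cers6* CPM, a very-long-chain against a long-chain synthase, was 3.99 ± 0.13 in *Srsf10-kd* and 3.67 ± 0.43 in *Ctrl* (mean ± SD, n = 4). The ranges overlapped, at 3.81 to 4.10 and 3.26 to 4.14. The ratio of *Cers2* to *Cers5* was 6.31 ± 0.46 against 6.45 ± 0.15 on the same scale, also with overlap.

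*Degs1* was the gene of the 10 with the most regular difference. It codes for dihydroceramide desaturase, which inserts the double bond that turns dihydroceramide into ceramide. Its level was 72.0, 74.5, 85.5 and 76.0 CPM in *Srsf10-kd* 1 to 4 and 64.6, 67.8, 68.6 and 68.3 CPM in *Ctrl* 1 to 4. All 4 *Srsf10-kd* livers lay above all 4 *Ctrl* livers, with *Srsf10-kd* 3 the highest. The means were 77.0 ± 5.89 and 67.4 ± 1.88 CPM (SD, n = 4), a ratio of 1.14 (95% interval 0.988 to 1.32). Such separation, found for 14.3% of all genes, fixes the two-sided exact permutation p at 0.0286, the smallest that 4 against 4 allows. The other 9 genes had exact permutation p-values of 0.143 to 0.971. The log2 difference of 0.19 (SE 0.094, 95% interval -0.02 to 0.40) had an edgeR adjusted p of 0.257 and a DESeq2 adjusted p of 0.191, so it did not pass either test. It stayed between 0.14 and 0.22 when any 1 liver was left out and was 0.07 with the length trend removed.

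The genes of the lysosomal enzymes that release sphingosine or ceramide did not differ beyond the spread of the livers. *Asah1* codes for acid ceramidase, which cleaves ceramide to sphingosine and a fatty acid. It was measured at 39.4, 29.6, 31.3 and 32.5 CPM in *Srsf10-kd* 1 to 4 and at 32.7, 34.9, 33.8 and 32.0 CPM in *Ctrl* 1 to 4. *Srsf10-kd* 1 was the highest liver and *Srsf10-kd* 2 the lowest, so the *Ctrl* range lay inside the *Srsf10-kd* range. *Asah1* thus had a log2 difference of -0.0077 (SE 0.11, 95% interval -0.25 to 0.23, edgeR adjusted p = 0.971).

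*Smpd1* codes for acid sphingomyelinase, which returns ceramide from sphingomyelin. Its level was 35.1, 39.7, 45.1 and 34.5 CPM in *Srsf10-kd* 1 to 4, and 41.8, 36.9, 38.4 and 37.2 CPM in *Ctrl* 1 to 4. The *Ctrl* range again lay inside the *Srsf10-kd* range, and the means were 38.6 CPM in both groups. Its log2 difference was 0.00063 (SE 0.11, 95% interval -0.25 to 0.25, edgeR adjusted p = 0.998). The log2 ratio of *Asah1* to *Smpd1* CPM was -0.22 ± 0.32 in *Srsf10-kd* and -0.21 ± 0.11 in *Ctrl* (mean ± SD, n = 4), with overlapping ranges.

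*Ugcg* codes for glucosylceramide synthase, the first step from ceramide to glycosphingolipids. It had 14.4, 13.9, 19.0 and 19.8 CPM in *Srsf10-kd* 1 to 4 and 15.8, 15.9, 14.0 and 14.1 CPM in *Ctrl* 1 to 4. *Srsf10-kd* 3 and 4 were above all *Ctrl* livers, whereas *Srsf10-kd* 2 was the lowest of the 8. In log2 units *Ugcg* differed by 0.16 (SE 0.14, 95% interval -0.14 to 0.47, edgeR adjusted p = 0.477).

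**Figure D2:**
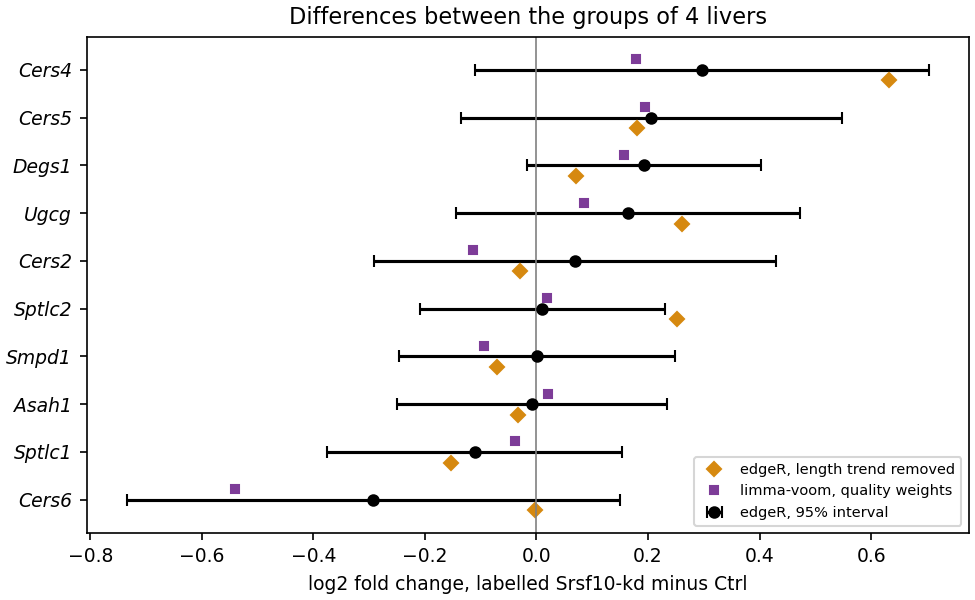
Log2 fold change of each gene, livers labelled Srsf10-kd minus Ctrl (x axis, log2 units; y axis, genes in order of the edgeR value), with black points and bars for edgeR and its 95% interval, purple squares for limma-voom with quality weights and orange diamonds for edgeR with the length trend removed (n = 4 livers per group). Every black bar crosses 0, and *Cers4*, *Cers6* and *Sptlc2* are the genes whose points lie farthest apart.

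The 95% intervals of the edgeR fit cover the spread between livers under TMM scaling only. All 10 intervals contained 0. For 8 genes the interval lay within a 1.5-fold difference in either direction, and for *Cers4* and *Cers6* it did not. The interval of *Cers4* reached a ratio of 1.63 and that of *Cers6* a ratio of 0.601. A p above the threshold does not show that the groups have equal levels, and p-values measure the spread between these 8 livers only.

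The length of a transcript moved with the difference over all genes, and the 10 genes fell in different length classes. Genes were split into 4 classes of like number by the length of the longest transcript, and the median log2 difference was 0.29 for 56 to 1865 bases, 0.07 for 1866 to 3072 bases, -0.06 for 3073 to 4550 bases and -0.22 from 4551 bases. *Sptlc1*, *Cers2*, *Cers5*, *Degs1*, *Asah1* and *Smpd1* belonged to the second class, *Ugcg* to the third, and *Sptlc2*, *Cers4* and *Cers6* to the class of the longest. With the trend removed, the log2 difference of *Sptlc2* was 0.25 (edgeR adjusted p = 0.331), which lies above its interval without the correction, and that of *Ugcg* was 0.26 (edgeR adjusted p = 0.411), and none of the 10 genes passed the threshold.

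Levels between genes were compared as RPKM, which divides CPM by the kilobases of all exons of a gene. *Cers2* ranked first, with 68.3 ± 13.9 in *Srsf10-kd* and 65.2 ± 8.50 in *Ctrl* (mean ± SD, n = 4). *Degs1* came next at 29.7 ± 2.27 and 26.0 ± 0.725, followed by *Smpd1* at 11.6 in both groups, *Asah1* at 9.79 and 9.85, and *Sptlc1* at 7.63 and 8.24. *Ugcg* (3.22 and 2.87), *Sptlc2* (2.55 and 2.53) and *Cers6* (1.77 and 2.17) formed a lower class, and *Cers5* (0.891 and 0.773) and *Cers4* (0.374 and 0.304) were last. The mean RPKM of *Cers2* was 38.5 times that of *Cers6* in *Srsf10-kd* and 29.99 times in *Ctrl*. This ratio depends on the length used, and it was 79.2 and 61.7 with the median length of the coding transcripts. The order of the 10 means was the same in both groups. Neighbours whose livers overlapped were *Asah1* and *Sptlc1*, and *Sptlc2* and *Cers6*, in *Ctrl*, and *Smpd1* and *Asah1*, and *Ugcg* and *Sptlc2*, in *Srsf10-kd*. With the length of the longest coding transcript the order stayed as it was. With the median length of the coding transcripts *Asah1* moved above *Smpd1*, and *Sptlc2* fell to rank 9 below *Cers6* and *Cers5*, while *Cers2*, *Degs1*, *Sptlc1* and *Cers4* kept their ranks. With this length the order was not the same in both groups. *Cers6* had rank 6 and *Ugcg* rank 7 in *Ctrl*, and *Ugcg* had rank 6 and *Cers6* rank 7 in *Srsf10-kd*.

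**Figure D3:**
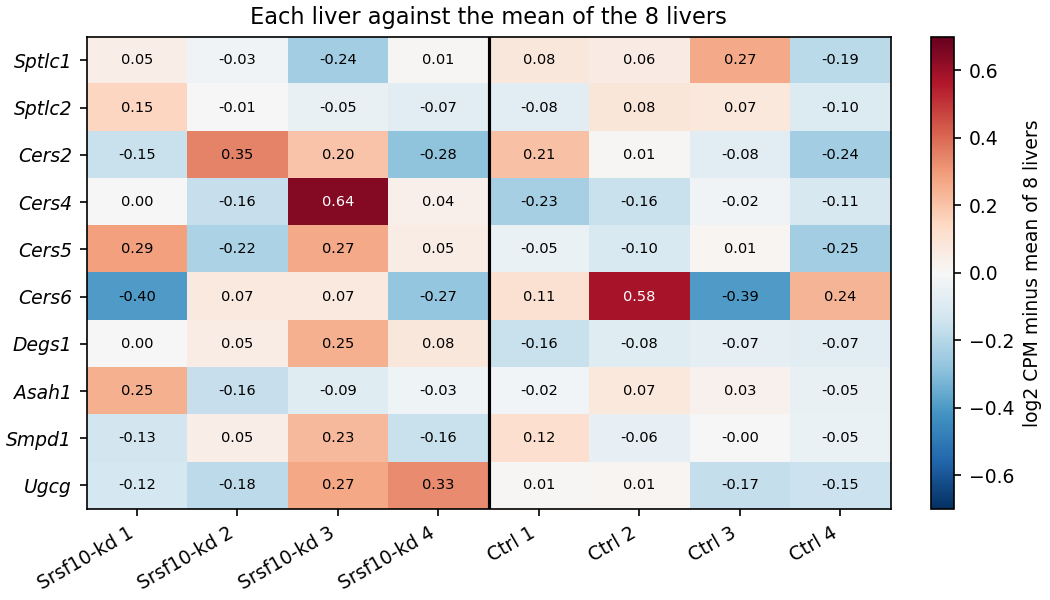
Log2 CPM of each gene in each liver minus the mean of the 8 livers (rows, genes; columns, livers; red above and blue below the mean, with the value printed in the cell). *Srsf10-kd* 3 is the highest liver for 3 genes, among them *Cers4* at 0.64, and *Cers6* spans -0.40 to 0.58.

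The 10 genes did not rise and fall together from liver to liver. Pearson's r of log2 CPM over the 8 livers was positive for 21 and negative for 24 of the 45 pairs of genes, from -0.58 to 0.88 with a median of -0.09. The highest values were those of *Cers4* with *Degs1* (0.88), *Cers2* with *Smpd1* (0.78) and *Sptlc2* with *Asah1* (0.76), and the lowest was that of *Sptlc1* with *Degs1* (-0.58). *Srsf10-kd* 1 and *Srsf10-kd* 3 were each the highest liver for 3 genes. The 8 points of each r share libraries and the labelled groups, so the values are a description.

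For each gene, the protein-coding gene with the most alike pattern of log2 CPM over the 8 livers was sought among 13395 tested genes. The serine palmitoyltransferase subunits were closest to *Gm4951* (*Sptlc1*, r = 0.99) and *Tlr6* (*Sptlc2*, r = 0.92). For the ceramide synthases these were *Acot11* with *Cers2* (r = 0.97), *Psip1* with *Cers4* (r = 0.998), *Haus3* with *Cers5* (r = 0.98) and *Fam214b* with *Cers6* (r = 0.94). *Degs1* was closest to *Ap4s1* (r = 0.98), *Asah1* to *Tek* (r = 0.94), *Smpd1* to *Slc30a9* (r = 0.96) and *Ugcg* to *Hbb-bt* (r = 0.96). *Tek* is a receptor of endothelial cells and one of the endothelial markers, *Hbb-bt* codes for a beta-globin and *Acot11* for an acyl-CoA thioesterase. Each r is the highest of 13395 over 8 livers, and nothing is read from it about shared control.

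A wider list of 68 sphingolipid genes, which includes the 10, held 59 tested genes. Of these 31 were higher and 28 lower in *Srsf10-kd*, with a median log2 difference of 0.01, equal to that of all genes at 2 decimals. The edgeR test called 0 of 59, and 7 of 59 had an unadjusted p under 0.05, beside 21.8% of all genes. DESeq2 called 1, beside 5.27% of the genes to which it gave an adjusted p, and limma-voom called 3, beside 11.7% of all. The groups did not overlap for 2 of 59 (3.39%, beside 14.3% of all genes), *Degs1* and *Plekha8*.

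*Plekha8* codes for FAPP2, a protein that transfers glucosylceramide between membranes. Its level was 38.1, 34.8, 27.1 and 35.5 CPM in *Srsf10-kd* 1 to 4 and 43.7, 42.5, 48.9 and 49.8 CPM in *Ctrl* 1 to 4. All *Srsf10-kd* livers lay below all *Ctrl* livers, with *Srsf10-kd* 3 the lowest. The log2 difference was -0.45 (SE 0.12), with an adjusted p of 0.127 by edgeR, 0.0343 by DESeq2 and 0.0428 by limma-voom, so the call depended on the tool. With the length trend removed the value was -0.21, and 208 bases of its exons overlap *Fkbp14* on the opposite strand.

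By role, directions were mixed. Among serine palmitoyltransferase and its regulators 6 of 7 tested genes were higher (median 0.21), and among reductase, ceramide synthases and desaturases 6 of 7 (median 0.19). The ceramidases had 2 of 4 higher (median 0.05), sphingomyelin synthases and sphingomyelinases 3 of 7 (median -0.06), and glycosphingolipid synthesis 4 of 6 (median 0.14). Of the genes of glycosphingolipid breakdown, most of them lysosomal, 3 of 11 were higher (median -0.03), of sphingosine 1-phosphate and ceramide phosphate enzymes 3 of 6 (median -0.03), of transfer and export proteins 2 of 6 (median -0.23), and of sphingosine 1-phosphate receptors 2 of 5 (median -0.17). Of all 15491 genes tested, 7954 were higher. These counts and medians are without the length correction, which moved single genes both ways. *Sptssa* went from 0.37 to 0.15, *Ormdl2* from 0.21 to 0.02 and *Col4a3bp* from -0.21 to -0.05. *Kdsr* went from 0.14 to 0.33 and *Sptlc2* from 0.01 to 0.25. The part of transcript length in the medians by role was not tested. No gene in any of these classes passed the edgeR test.

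Apart from *Plekha8*, the other 6 list genes with an unadjusted edgeR p under 0.05 are named here after their values were seen. *Sptssb*, a small subunit of serine palmitoyltransferase, had a log2 difference of 1.34 (edgeR adjusted p = 0.221) on only 2 to 35 reads per liver, and this was 0.80 without *Srsf10-kd* 2 and 1.99 without *Ctrl* 3. *Ormdl1*, one of the proteins that restrain that enzyme, had 25.7 ± 9.50 CPM in *Srsf10-kd* and 16.2 ± 2.73 CPM in *Ctrl* (SD, n = 4), a log2 difference of 0.66 (edgeR adjusted p = 0.166) that was 0.37 without *Srsf10-kd* 3 and 0.34 with limma-voom. The exons of *Ormdl1* overlap *Gm28778* on the same strand over 411 bases, so its counts are uncertain. *Degs2*, the homologue of *Degs1* that makes phytoceramide, had 0.965 ± 0.282 against 0.582 ± 0.209 CPM and a log2 difference of 0.73 (edgeR adjusted p = 0.191), with 278 bases of overlap with *Evl* on the opposite strand. *S1pr1*, a receptor for sphingosine 1-phosphate, had 55.8 ± 8.81 against 43.9 ± 6.10 CPM (log2 difference 0.35, edgeR adjusted p = 0.209), and its difference was 0.16 with limma-voom. *Asah2*, neutral ceramidase, had 16.6 ± 5.76 against 24.1 ± 1.69 CPM (log2 difference -0.54, edgeR adjusted p = 0.210). The *Asah2* value was -0.34 without *Srsf10-kd* 3, which had 9.49 CPM, and -0.30 with the length trend removed. *St3gal5*, the synthase of the ganglioside GM3, had 306 ± 52.8 against 407 ± 60.5 CPM (log2 difference -0.41, edgeR adjusted p = 0.187). Limma-voom called *Degs2* (adjusted p = 0.0309) and *Asah2* (adjusted p = 0.0470), and DESeq2 called none of these 6.

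**Figure D4:**
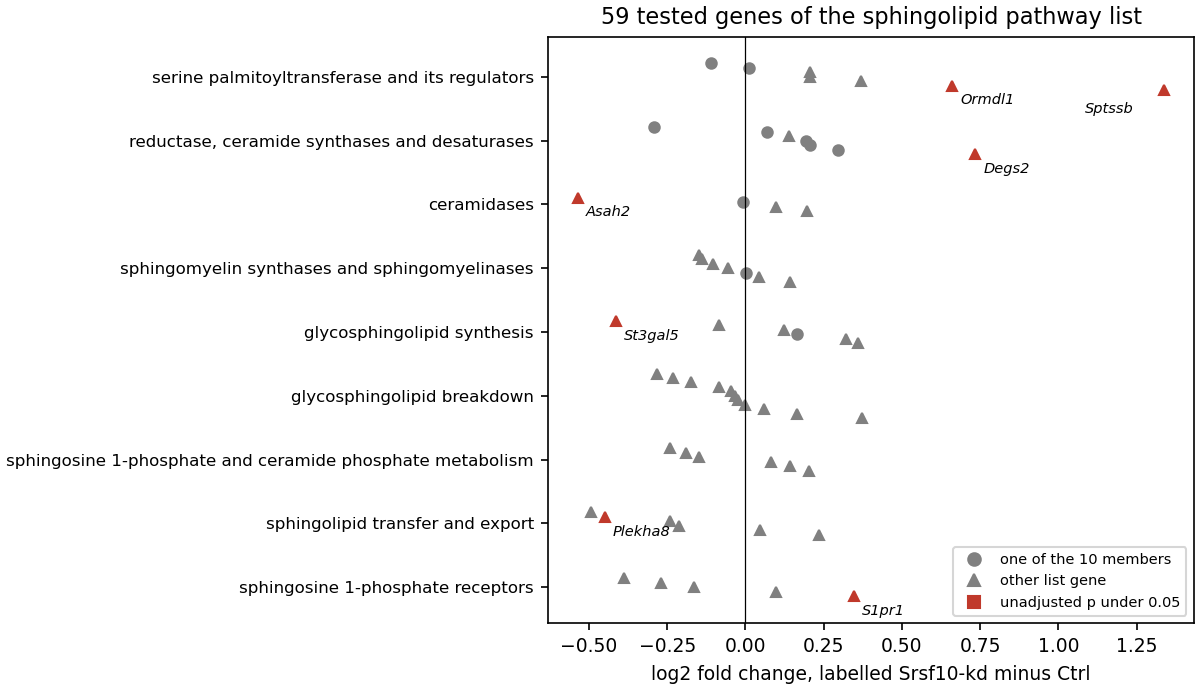
Log2 fold change, livers labelled Srsf10-kd minus Ctrl (x axis, log2 units), of the 59 tested sphingolipid genes by role (y axis), with circles for the 10 ceramide genes, triangles for the other 49 and red for an unadjusted edgeR p under 0.05. All 10 circles are grey and lie between -0.29 and 0.30, and the 7 red triangles carry their names.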

How the data were processed

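Poly(A)-selected RNA of 8 mouse livers was sequenced as paired ends. STAR (2.7.7a in the submitters' processing notes) was the aligner, GRCm38 the build, and the authors deposited unnormalized counts per gene. The annotation release, strand setting and read filters are not given in the sources used here. All 8 columns matched a sample label. No column was a duplicate (over 28 pairs, chi-square per degree of freedom was 51.6 or more).

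Counts were analysed in R 4.3.3 with edgeR 4.0.16: TMM, filterByExpr (15491 genes), a quasi-likelihood fit on condition alone, a two-sided test and Benjamini-Hochberg adjusted p under 0.05. Intervals cover 95%. DESeq2 1.42.0, which the study's methods name, and limma 3.58.1 were alternatives. Log2 CPM used a prior count of 2. Single genes had an exact permutation test over 70 assignments. The length alternative removed each library's lowess trend (span 0.5). Positions and lengths are from GENCODE M21, which holds 45143 of the identifiers, and promoter windows from RefSeq. Scripts were tested on simulated counts in which 200 genes were changed by a log2 difference of 1.5. Of these, edgeR recovered 173 with 10 false calls, DESeq2 180 with 30 and limma-voom 172 with 10. The log2 differences of the 10 genes were smaller, from -0.29 to 0.30. The simulation therefore does not show how often differences of that size would be found.

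The wider list and the markers, like the 10 genes, were chosen with earlier results of these data known. Named genes are the 10, *Srsf10*, list genes that a test called or whose groups did not overlap, the gene most alike to each, and those marked as named afterwards. The lengths behind the order of levels were added after seeing the data. Libraries held 50456404 to 59697241 counts, and no statement here covers splicing or polyadenylation sites, which were not analysed here.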

Additional observations from a re-analysis of the deposited data

Results flagged for a closer look

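In 37 measures and 74 groups of 4 livers, 4 single livers lay far from the other 3 of their group, by Dixon's ratio of gap to range at its 95% level. Chance gives about 1 in 20, or 3.7 of 74 groups. No such liver was found for any of the 10 ceramide genes. *Ormdl1* had 39.7 CPM in *Srsf10-kd* 3, against 18.7 to 22.3 CPM in the other *Srsf10-kd* livers. For *Degs2* the liver was *Ctrl* 3, at 0.895 CPM where its group was otherwise at 0.451 to 0.492 CPM. *Tlr6*, the gene most alike to *Sptlc2*, had 0.610 CPM in *Srsf10-kd* 1, against 0.331 to 0.365 CPM. *Psip1*, the gene most alike to *Cers4*, had 37.6 CPM in *Srsf10-kd* 3, against 24.1 to 26.3 CPM.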

How the results depend on the processing

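None of the 10 ceramide genes passed an adjusted p of 0.05 in any of the 8 alternatives that keep all livers or the 8 fits without 1 liver. Over all genes the 11 calls became 824 with DESeq2, 1814 with limma-voom, 46 without a filter on low counts, 6 with the length trend removed, and 0 to 544 without 1 liver (544 without *Ctrl* 3, 64 without *Srsf10-kd* 3). The wider list had 1 call with DESeq2 and 3 with limma-voom. With the replicate block there were 59 calls over all genes and 0 among the 10. Same-numbered livers correlated at -0.18, 0.21, 0.27 and 0.22 in their deviations from the group means. Of the 8 livers, 5 were closest to their own number among the 4 livers of the other group. Only 1 of those 4 carries the same number. The labels do not say whether the numbers pair the livers, and the main fit took condition alone. The cause of these changes was not tested.

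Of the 10 genes' 80 values in the alternatives that keep all livers 70 kept their direction, and of 80 without 1 liver 66 did. The signs that turned belong to 4 genes near 0. *Smpd1* was -0.012 with DESeq2, -0.094 with limma-voom, -0.000035 with DESeq2 size factors, -0.011 with library size only, -0.0098 without a filter, -0.0060 with the replicate block, -0.071 with the length correction and -0.082 to 0.051 without 1 liver. *Cers2* was -0.11 with limma-voom, -0.029 with the length correction and -0.046 to 0.16 without 1 liver. *Asah1* was 0.020 with limma-voom and -0.0996 to 0.042 without 1 liver. *Sptlc2* was -0.041 to 0.039 without 1 liver. Of the genes most alike, limma-voom turned *Tlr6* (0.078), *Acot11* (-0.43), *Tek* (0.018) and *Slc30a9* (-0.058), and the length correction turned *Tlr6* (0.026) and *Tek* (0.080). Without 1 liver *Tlr6* ranged from -0.29 to 0.074, *Acot11* from -0.27 to 0.31, *Tek* from -0.17 to 0.011 and *Slc30a9* from -0.046 to 0.10.

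Each of the 10 genes had 130 or more reads per liver, and 4 livers a group leave intervals that reach a ratio of 1.63 for *Cers4* and of 0.601 for *Cers6*. *Cers4* shares exon sequence with other transcripts, and the length of a transcript moved with the difference.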
